A study of Mus musculus with 8 samples.

Results

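Stefins and cystatins are small protein inhibitors of cysteine proteases, and 9 of their genes were followed in mouse leukaemia cells treated with inhibitors of BET bromodomain proteins. The 9 genes are Stfa1, Stfa2, Stfa3, Stfa2l1, BC100530, BC117090 and Gm5483, which lie in the stefin cluster, and Cstb and Cst3, which lie elsewhere. They were taken by symbol from a table of 20484 genes, and each symbol matched 1 row. The set was chosen by level, because stefin transcripts are among the most abundant in these cells, so the RPKM levels that selected it are given as a description and only the differences between treatments were tested.

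RNA was sequenced from RN2 cells, an engineered acute myeloid leukaemia line on a C57BL/6J background that carries MLL-AF9 and an NRAS allele written as G112D in the labels. All 4 groups are this line, with 2 libraries each that the labels call biological replicates. They are cells treated with OTX-015, cells treated with BBC1115, cells treated with RVX-208 and cells treated with DMSO, the solvent. OTX-015 (birabresib) binds both bromodomains of BET proteins, RVX-208 (apabetalone) favours the second one, and BBC1115 is known here by its code name, in a series on compounds that target BET proteins. The sources used here do not give doses or times of treatment, so the compounds could not be compared at matched exposure. The line is 1 engineered model, and nothing in the labels says whether the replicates were treated on separate days.

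Cystatins bind the active site cleft of papain-like proteases, the cysteine cathepsins of lysosomes, and block it reversibly. Stefins are the branch without a signal peptide, and they act inside the cell, where they meet cathepsins that leave the lysosome. Cstb encodes stefin B, which most tissues make, and mutations of its human counterpart cause a form of progressive myoclonus epilepsy. Cst3 encodes cystatin C, a secreted inhibitor used in human blood as a marker of kidney function. In mouse the gene for stefin A has multiplied into a cluster whose members are expressed in granulocytes and their precursors.

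The 7 cluster members lie on chromosome 16 (GRCm38, GENCODE annotation), within chr16:36156811-36455392, a stretch of 299 kb. Their order along it is Stfa2l1, Gm5483, Stfa1, BC117090, BC100530, Stfa2 and Stfa3, with the first 3 on the plus strand and the other 4 on the minus strand. RefSeq names Gm5483, BC100530 and BC117090 as Cstdc4, Cstdc5 and Cstdc6. Cstb lies at chr10:78425669-78427622 on the plus strand and Cst3 at chr2:148871722-148875692 on the minus strand. All 9 are protein-coding genes of 3 exons. Exons of BC100530 overlap those of Gm15845, an antisense gene on the opposite strand. The library kit keeps the strand of the RNA, but the sources used here do not say whether the counting used it, so reads of this overlap cannot be assigned.

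The cluster members resemble each other closely, which limits how well reads can be told apart. Over the 21 pairs of the 7 members, the aligned coding sequences were between 76.63% and 97.94% identical, with a median of 81.1%. Stfa1 and BC100530 matched at 285 of 291 aligned positions, Stfa2 and Stfa2l1 at 298 of 309 (96.44%), and BC100530 and BC117090 at 275 of 288 (95.49%). Gm5483 matched 2010005H15Rik, a further cystatin gene of the cluster that RefSeq names Csta2, at 282 of 291 positions (96.91%).

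**Figure D1:**
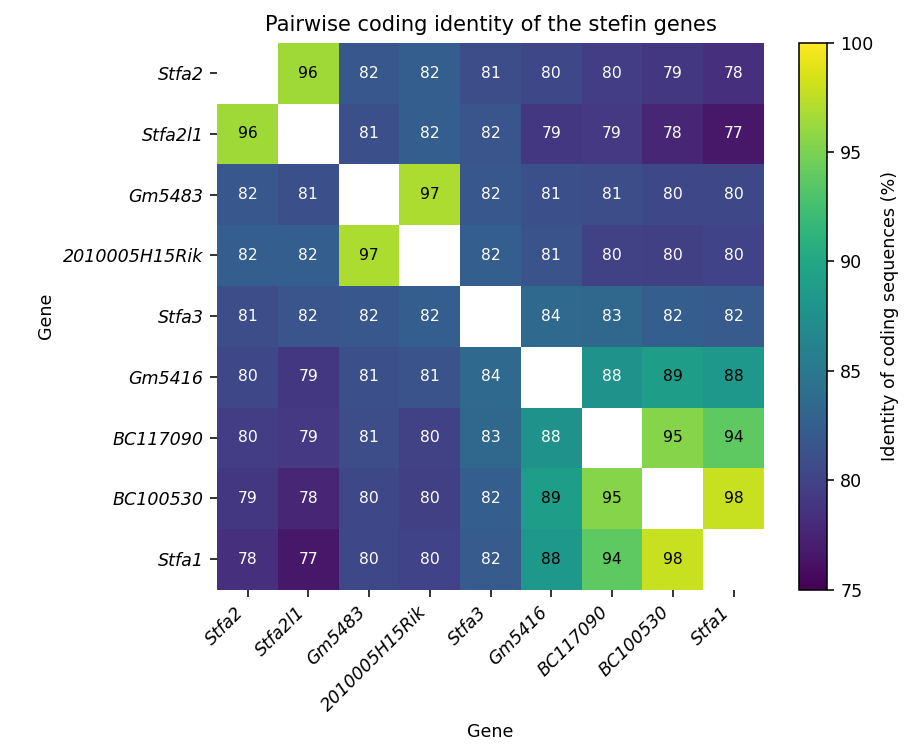
Percentage of identical positions between the aligned coding sequences of the 7 stefin members and of Gm5416 and 2010005H15Rik, for each pair of genes (both axes), from dark (lower) to yellow (higher). The pairs above 93% join Stfa1, BC100530 and BC117090, join Stfa2 to Stfa2l1, and join Gm5483 to 2010005H15Rik.

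Exact sharing was counted in windows of 50 transcript bases, each looked up in all other annotated transcripts. In Stfa1 26.94% of windows also occurred in another gene, in BC100530 33.51%, in BC117090 33.73%, in Gm5483 35.62%, in Stfa2l1 24.59% and in Stfa2 15.88%. The shared windows of Stfa1 lay in BC100530 and BC117090, and those of Gm5483 all lay in 2010005H15Rik. Stfa3, Cstb and Cst3 shared 0% of their windows. The sources used here do not say how the authors' software divided shared reads, so the levels of the near-identical genes are uncertain one by one, and sums over them are given beside them.

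The sequences just upstream of the cluster genes are shown because 6 of the genes were lower together after OTX-015. RefSeq (GRCm38.p6) gave a promoter window for 7 of the 9 genes, and those of BC117090 and Cstb were not matched. Each line holds the 100 bases before the annotated transcription start, 5′ to 3′ on the gene's own strand. The capitals mark ACCTTTAAAACC, the longest run of bases common to all 6 stefin windows, which was picked after the sequences had been read. The windows are Stfa1 at chr16:36277048-36277147 (plus strand), Stfa3 at chr16:36455393-36455492 (minus), Stfa2 at chr16:36408364-36408463 (minus), Stfa2l1 at chr16:36156711-36156810 (plus), BC100530 at chr16:36367571-36367670 (minus) and Gm5483 at chr16:36184112-36184211 (plus).
Stfa1: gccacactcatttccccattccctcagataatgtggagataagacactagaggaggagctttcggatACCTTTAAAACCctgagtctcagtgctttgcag
BC100530: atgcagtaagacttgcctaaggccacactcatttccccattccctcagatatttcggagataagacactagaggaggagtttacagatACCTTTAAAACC
Gm5483: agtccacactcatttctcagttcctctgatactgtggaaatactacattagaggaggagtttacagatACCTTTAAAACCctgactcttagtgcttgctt
Stfa3: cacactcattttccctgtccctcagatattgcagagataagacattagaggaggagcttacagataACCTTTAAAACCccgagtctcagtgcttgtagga
Stfa2l1: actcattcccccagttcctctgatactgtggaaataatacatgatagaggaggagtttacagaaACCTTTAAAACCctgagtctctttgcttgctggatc
Stfa2: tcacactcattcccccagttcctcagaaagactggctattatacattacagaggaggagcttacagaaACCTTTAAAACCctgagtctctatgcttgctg

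The run began between 32 and 36 bases before the annotated start in 5 of the genes and 12 bases before it in BC100530, whose RefSeq start lies further upstream in the alignment. It occurred in 11 of 32544 promoter windows of the mouse genome (0.0338%; either strand, 250 bases before to 50 after the start). Of those 11, 9 were on chromosome 16. Among them are the 6 stefin windows from which the run was taken, which hold it by choice. Csta3, the RefSeq name of Gm5416, is also among them. Cdc42ep4 on chromosome 11 and Gm39539 on chromosome X held the other 2. The window of 2010005H15Rik did not hold the run, and little of it aligned with the stefin windows (19 positions with Stfa1, 4 with Gm5483). This cluster gene was lower after OTX-015 (log2 fold change -0.98) and BBC1115 (-0.84). Any part of the run in the changes was not tested. Pairs of the 6 stefin windows were between 77.5% and 92.41% identical over the aligned part of the 100 bases, highest for Stfa1 and BC100530.

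Motifs of known factors were searched on both strands of the same 300-base windows. GAGGAA, the core bound by the myeloid factor PU.1, stood in 6 of 6 stefin windows, against 28.1% of all windows. TTGCNNAA, bound by C/EBP factors, stood in 2 of 6 (Stfa1 and BC100530), against 10.8%. TGACTCA, bound by AP-1, stood in 1 of 6 (Stfa3), against 5.19%. Neither TATAAA, the usual TATA box (13.6% of all windows), nor CACGTG, the E-box bound by MYC (7.17%), was found in these windows. The 6 stefin windows are much alike, so matches in them are not independent of each other. A match of letters is not evidence of binding, and these windows were not measured for it.

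Values are RPKM, reads scaled by transcript length and library size, as the authors deposited them, so levels can be set side by side between genes. The summed RPKM of a library ran from 375973 to 467673. The spacing of the lowest values put the depth at about 10900000 to 18000000 reads a library, deepest in DMSO replicate 1, which gives about 120 reads to Stfa2 in OTX-015 replicate 1 and 36000 to Stfa1 in DMSO replicate 1. The myeloid label was checked against markers. Neutrophil and granule genes summed to between 4560 and 8970 RPKM and monocyte genes to between 1560 and 2430 RPKM over the libraries, while the sums of T and NK cell, B cell, erythroid and keratinocyte markers stayed at or under 2.14 RPKM. Fibroblast and stromal markers summed to between 0.275 and 3.88 RPKM, most of it Pdgfrb, which fell with OTX-015 (log2 fold change -1.54) and BBC1115 (-1.88). Cd3e, Cd4, Ms4a1, Krt5 and Krt14 were listed at 0 in every library. Of the 23 listed neutrophil genes, Ly6g, Mmp8 and Retnlg stayed under 1 RPKM, while the granule genes Ngp (64.7 to 91.7 RPKM), Lcn2 (20.7 to 33.2 RPKM), Camp (3.25 to 9.98 RPKM) and Ltf (2.41 to 3.97 RPKM) were present in every library. In cultured cells measured in bulk, fewer cells of a type and less RNA per cell cannot be told apart.

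Stfa1 was the most abundant member, and among the 20484 genes its rank ran between 3 and 14 over the libraries. BC100530 ranked between 5 and 21, Gm5483 between 103 and 197 and Stfa3 between 177 and 295. Cst3, BC117090, Cstb and Stfa2l1 followed by mean level, and Stfa2 was the least abundant, with ranks between 2028 and 3729. In DMSO cells the ranges of Stfa1 and BC100530 overlapped, as did those of Cstb with BC117090 and of BC117090 with Stfa2l1. The other neighbours in the order were apart in both DMSO libraries.

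The 7 stefins together held 1.01% to 1.595% of all RPKM of a library. Their summed level was 4141 and 4153 RPKM in OTX-015 cells, 5166 and 4556 RPKM in BBC1115 cells, 5687 and 5756 RPKM in RVX-208 cells, and 7459 and 5620 RPKM in DMSO cells. Stfa1 and BC100530 supplied between 80.7% and 84.24% of that sum in every library. As a ratio of group means, the sum was 0.634 of the DMSO level after OTX-015, 0.743 after BBC1115 and 0.875 after RVX-208. Taken as a percentage of all RPKM of the library, it was 0.728, 0.765 and 0.94 of the DMSO value. DMSO replicate 1 stood highest of the 8 libraries, and without it the RVX-208 sum was 1.02 of the DMSO level.

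**Figure D2:**
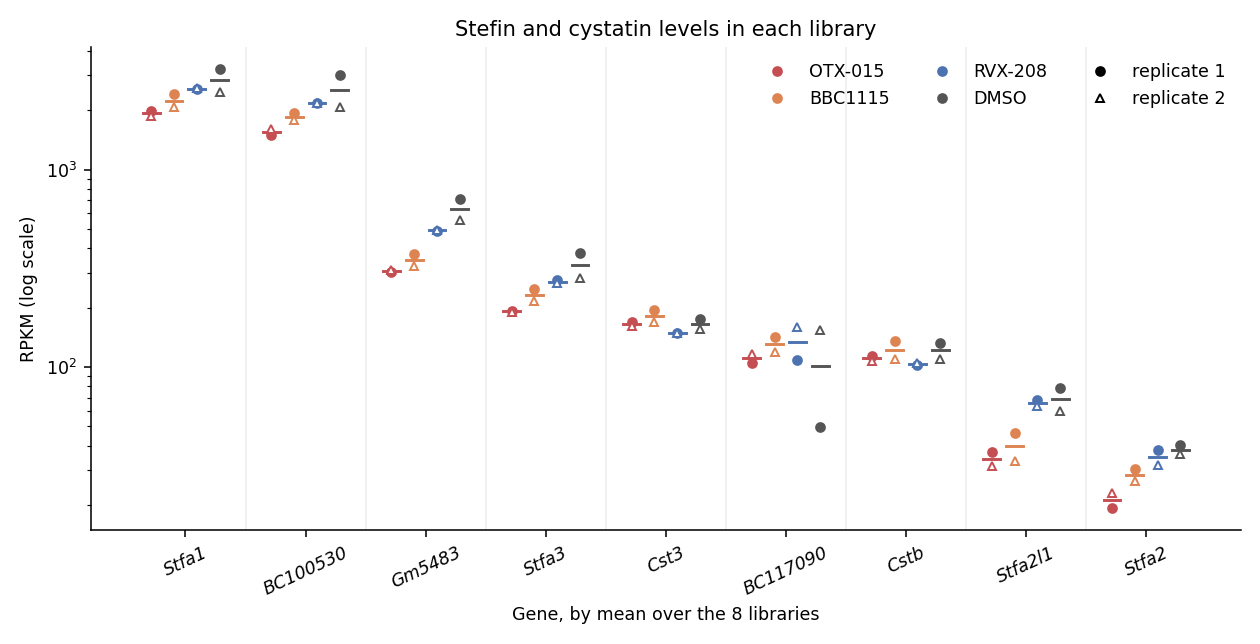
RPKM of the 9 genes (log axis) in each of the 8 libraries, for OTX-015, BBC1115, RVX-208 and DMSO cells; filled circles are replicate 1, open triangles replicate 2 and bars the mean of both. From Stfa1 at 1870 to 3215 RPKM down to Stfa2 at 19.2 to 40.3 RPKM, 6 stefins are lowest after OTX-015, while BC117090 is split between the DMSO libraries, at 49.8 and 153 RPKM.

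OTX-015 against DMSO asks what a known BET inhibitor does to these genes. Of the 9 members, 6 were lower and 0 were higher at an adjusted p under 0.05 in limma, and all 6 are stefins of the cluster; 40.0% of the 9975 genes tested were lower and 24.2% were higher. The median log2 fold change of the 7 stefins was -0.77, against -0.13 over all genes tested. Stfa2l1 and Gm5483 stood at about 0.499 and 0.487 of the DMSO mean, the largest falls in the set. Cstb, Cst3 and BC117090 did not pass the test.

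Gm5483 (Cstdc4), a stefin A paralogue, had 302 and 310 RPKM in OTX-015 cells, against 706 and 553 RPKM in DMSO cells. The libraries did not overlap, and the fit gave a log2 fold change of -1.03 (95% interval -1.30 to -0.76, limma adjusted p = 3.11e-05). Added to its near copy 2010005H15Rik, it came to 369.8 and 388.9 RPKM in OTX-015 cells, against 872.8 and 678.7 RPKM in DMSO cells. The sum of the pair was thus lower in both treated libraries than in either control.

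Stfa2l1, a paralogue of Stfa2, had 37.3 and 31.4 RPKM in OTX-015 cells, against 78.2 and 59.7 RPKM in DMSO cells. Its log2 fold change was -0.98 (interval -1.33 to -0.62, limma adjusted p = 0.000292). Stfa2, a cytosolic stefin, had 19.2 and 23.0 RPKM in OTX-015 cells, against 40.3 and 36.1 RPKM in DMSO cells, a log2 fold change of -0.83 (interval -1.09 to -0.56, limma adjusted p = 0.000127). Both were apart from the controls in each library, and so was their sum, 54.48 to 56.56 RPKM in OTX-015 cells and 95.78 to 118.5 RPKM in DMSO cells.

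Stfa3 is the stefin among the 7 that shares none of its 50-base windows with another transcript. It had 192 and 190 RPKM in OTX-015 cells, against 376 and 283 RPKM in DMSO cells. The treated libraries lay below both controls, and the log2 fold change was -0.77 (interval -1.05 to -0.49, limma adjusted p = 0.000314).

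BC100530 and Stfa1 carry most of the stefin RNA. BC100530 (Cstdc5) had 1496 and 1611 RPKM in OTX-015 cells, against 2992 and 2061 RPKM in DMSO cells, a log2 fold change of -0.68 (limma adjusted p = 0.00424). Stfa1, a stefin A gene of the mouse, had 1989 and 1870 RPKM in OTX-015 cells, against 3215 and 2474 RPKM in DMSO cells, a log2 fold change of -0.55 (interval -0.88 to -0.21, limma adjusted p = 0.00864). Both genes were apart from the controls in each library. The call on Stfa1 was lost without DMSO replicate 1 (adjusted p = 0.0612), without OTX-015 replicate 2 (0.073) and with no filter on low values (0.0516), with log2 fold changes of -0.36, -0.50 and -0.55.

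BC117090 (Cstdc6) was the member that stood apart. It had 105 and 117 RPKM in OTX-015 cells, against 49.8 and 153 RPKM in DMSO cells, so both treated libraries lay between the controls. Its log2 fold change was 0.34 with an interval of -0.50 to 1.17 (limma adjusted p = 0.45). Without DMSO replicate 1 it was called lower, at -0.46 (adjusted p = 0.0237), and without DMSO replicate 2 higher, at 1.14 (adjusted p = 2.21e-05), so the direction rests on which control is kept.

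The level of BC117090 in DMSO replicate 1 was low against its near copy BC100530 rather than with it. The ratio of BC100530 to BC117090 was 14.26 and 13.78 in OTX-015 cells, 13.55 and 14.99 in BBC1115 cells, 19.81 and 13.52 in RVX-208 cells, and 60.04 and 13.46 in DMSO cells. In 7 of the 8 libraries the ratio thus stayed under 20, and DMSO replicate 1 was the exception. Summed, the pair had 1601 and 1728 RPKM in OTX-015 cells, against 3042 and 2214 RPKM in DMSO cells. Whether reads were divided differently in that library was not tested.

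Cstb and Cst3, the members outside the cluster, showed no such fall. Cstb, which encodes stefin B, had 114 and 107 RPKM in OTX-015 cells, against 133 and 110 RPKM in DMSO cells, with overlapping ranges and a log2 fold change of -0.13 (interval -0.38 to 0.13, limma adjusted p = 0.345). Cst3, which encodes the secreted cystatin C, had 169 and 161 RPKM in OTX-015 cells, against 176 and 155 RPKM in DMSO cells, a log2 fold change of 0.00 (interval -0.22 to 0.21, limma adjusted p = 0.983). Relative to the other genes the sign depended on the scaling: Cst3 was called higher, by 0.18 to 0.34, with quantile normalization, with TPM and with the length trend removed, and Cstb by 0.19 and 0.13 with the first and the last of these.

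**Figure D3:**
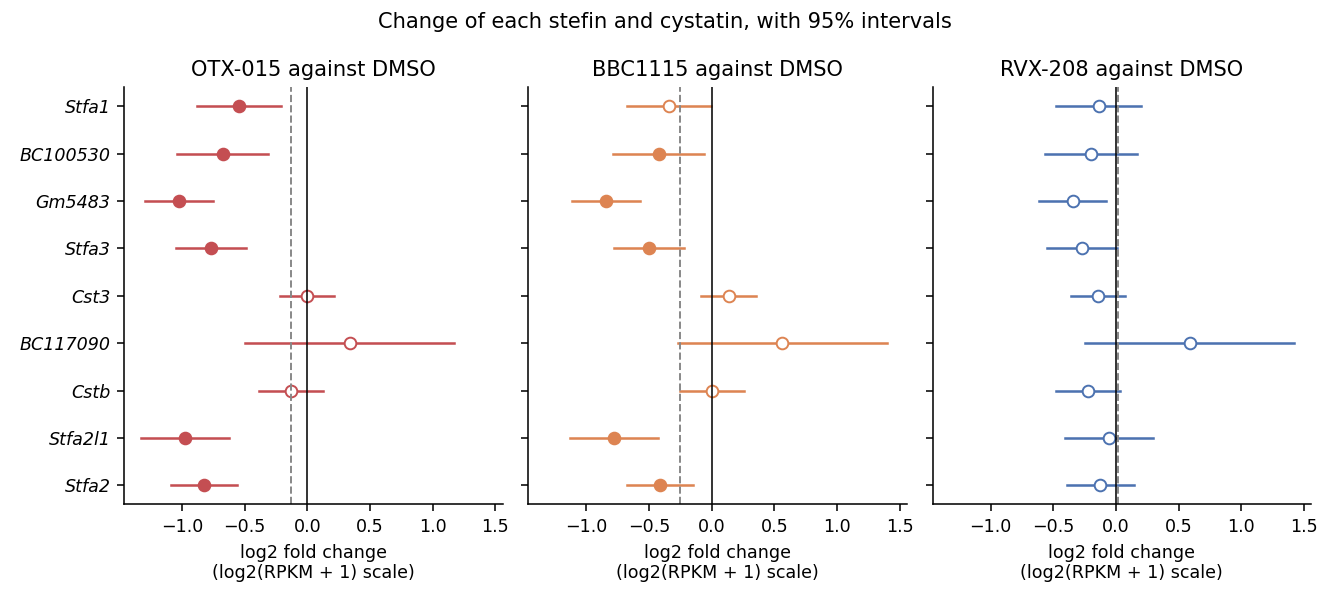
Log2 fold change (x axis, log2(RPKM + 1) scale) of each gene (y axis, by mean level) after OTX-015, BBC1115 and RVX-208, each against DMSO; bars are 95% intervals of the model, filled points passed an adjusted p of 0.05, and the dashed line is the median of all genes tested (-0.13, -0.25 and 0.02). Filled points lie left of 0 for 6 stefins with OTX-015 and 5 with BBC1115, and there are 0 with RVX-208.

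BBC1115 against DMSO puts the same question to the compound named by its code. Of the 9 members, 5 were lower and 0 higher, again all stefins, but 49.3% of all genes tested were lower and 26.4% higher, so the share is near that of all genes. The stefin median was -0.42, against -0.25 over all genes. The falls of Gm5483 and Stfa2l1 were the larger ones and held under each of the 21 alternative settings.

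Gm5483 had 373 and 324 RPKM in BBC1115 cells, against 706 and 553 RPKM in DMSO cells, a log2 fold change of -0.84 (interval -1.11 to -0.57, limma adjusted p = 7.46e-05). Stfa2l1 had 46.3 and 33.3 RPKM in BBC1115 cells, against 78.2 and 59.7 RPKM in DMSO cells, a log2 fold change of -0.78 (interval -1.13 to -0.43, adjusted p = 0.000902). For both genes each treated library was below each control.

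Stfa3 had 247 and 216 RPKM in BBC1115 cells, against 376 and 283 RPKM in DMSO cells (log2 fold change -0.50, limma adjusted p = 0.00393). Stfa2 had 30.6 and 26.4 RPKM, against 40.3 and 36.1 RPKM in DMSO cells (-0.41, adjusted p = 0.00854). BC100530 had 1929 and 1777 RPKM, against 2992 and 2061 RPKM in DMSO cells (-0.42, adjusted p = 0.0368). These 3 genes did not overlap between the groups, but with upper-quartile scaling, which brought the median of all genes to -0.02, their log2 fold changes were -0.24, -0.16 and -0.16 and none passed. The call on BC100530 was also lost in 9 other settings, among them without DMSO replicate 1 (-0.16) and without BBC1115 replicate 2 (-0.36). That on Stfa2 was also lost with quantile normalization (-0.18, limma adjusted p = 0.248) and without BBC1115 replicate 2 (-0.31).

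Stfa1 had 2398 and 2061 RPKM in BBC1115 cells, against 3215 and 2474 RPKM in DMSO cells, and its log2 fold change of -0.34 (interval -0.68 to -0.01) missed the threshold (limma adjusted p = 0.0601). It passed in 8 of the 21 alternatives, among them with a replicate block (adjusted p = 0.0142), without DMSO replicate 2 (-0.53, 0.00626) and without BBC1115 replicate 1 (-0.45, 0.0292). The log2 fold change was smaller without DMSO replicate 1 (-0.15, 0.392), without BBC1115 replicate 2 (-0.23, 0.25) and with upper-quartile scaling (-0.08, 0.562). BC117090 had 142 and 119 RPKM, between the DMSO libraries at 49.8 and 153 RPKM (log2 fold change 0.56, interval -0.27 to 1.40, adjusted p = 0.193). It was called higher, at 1.36 (adjusted p = 1.51e-06), without DMSO replicate 2.

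Cstb had 135 and 109 RPKM in BBC1115 cells, against 133 and 110 RPKM in DMSO cells, a log2 fold change of 0.00 (interval -0.25 to 0.26). Cst3 had 195 and 168 RPKM, against 176 and 155 RPKM in DMSO cells, a log2 fold change of 0.13 (interval -0.08 to 0.35, limma adjusted p = 0.231). Both ranges overlapped those of the controls. Cst3 was called higher in 5 of the alternatives, all of them scalings or the removal of the length trend, by 0.17 to 0.49.

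RVX-208 against DMSO gave 0 calls among the 9 members in limma at an adjusted p under 0.05. At that threshold 0.0802% of all genes tested were lower and 0.0902% higher. At an unadjusted p under 0.05 there was 1 member, Gm5483. The share of all genes at the unadjusted threshold was not counted. Gm5483 had 490 and 493 RPKM in RVX-208 cells, against 706 and 553 RPKM in DMSO cells, a log2 fold change of -0.35 (interval -0.62 to -0.08, adjusted p = 0.209). Stfa3 had 276 and 266 RPKM in RVX-208 cells, against 376 and 283 RPKM in DMSO cells, a log2 fold change of -0.27 (interval -0.55 to 0.01, limma adjusted p = 0.292). Each of these genes lay below both controls in both libraries, and so did Cstb and Cst3, given below. The share of all genes set apart in this way was not counted. With 2 libraries a group, such separation can arise without a change.

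The remaining stefins lay within or near the range of the DMSO libraries. Stfa1 had 2547 and 2578 RPKM in RVX-208 cells (log2 fold change -0.14, interval -0.47 to 0.20), BC100530 had 2159 and 2164 RPKM (-0.20, interval -0.57 to 0.17) and Stfa2l1 had 68.2 and 63.1 RPKM (-0.06, interval -0.41 to 0.29). Stfa2 had 38.1 and 32.0 RPKM (-0.12, interval -0.39 to 0.14). The intervals of Stfa1 and BC100530 take in the log2 fold changes found with BBC1115, while the lower bound for Stfa2l1, -0.41, does not reach the -0.78 found there.

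BC117090 had 109 and 160 RPKM in RVX-208 cells, Cstb 103 and 105 RPKM, and Cst3 149 and 149 RPKM. Their log2 fold changes against DMSO were 0.59 (interval -0.24 to 1.42), -0.22 (interval -0.47 to 0.04) and -0.14 (interval -0.36 to 0.07). The outcome depended on DMSO replicate 2. Without it, Gm5483 (-0.52, adjusted p = 0.0187) and Stfa3 (-0.47, 0.0219) were called lower, BC117090 was called higher (1.39, 0.000333), and 384 genes in all were lower and 662 higher.

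The compounds were also set against each other, with the caution that their doses and times are not known here. RVX-208 cells had more of the stefins than OTX-015 cells: 6 of the 9 members were higher and 0 lower, against 38.1% higher and 17.6% lower over all genes tested. Stfa2l1 differed most, with 68.2 and 63.1 RPKM in RVX-208 cells, against 37.3 and 31.4 RPKM in OTX-015 cells (log2 fold change 0.92, interval 0.57 to 1.27, limma adjusted p = 0.00059). Stfa2 (0.70) and Gm5483 (0.68) followed, and these 3 passed in all 21 alternatives.

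Stfa3 (log2 fold change 0.50), BC100530 (0.48) and Stfa1 (0.41) were higher in RVX-208 cells with limma adjusted p-values of 0.00617, 0.0304 and 0.0399. Without OTX-015 replicate 2 the count of higher members was 3 instead of 6, with adjusted p-values of 0.0506 for Stfa3, 0.0975 for BC100530 and 0.188 for Stfa1. Leaving out any other library of the pair of groups also ended the calls on BC100530 and Stfa1. BC117090 (0.25, interval -0.58 to 1.08), Cstb (-0.09, interval -0.35 to 0.16) and Cst3 (-0.14, interval -0.36 to 0.08) did not pass.

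BBC1115 against OTX-015 left 1 of the 9 members higher and 0 lower, against 14.2% higher and 29.7% lower over all genes. It was Stfa2, with 30.6 and 26.4 RPKM in BBC1115 cells, against 19.2 and 23.0 RPKM in OTX-015 cells (log2 fold change 0.41, interval 0.15 to 0.68, limma adjusted p = 0.0169). The call was lost without OTX-015 replicate 1 (0.29, adjusted p = 0.148) and without BBC1115 replicate 1 (0.31, 0.0898). The log2 fold changes of the other 8 members were between 0.13 and 0.27, and all of their intervals included 0. The interval for Gm5483 was -0.09 to 0.45 and that for Stfa1 -0.13 to 0.54, so differences of that size are not excluded by these libraries.

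BBC1115 against RVX-208 had 3 of the 9 members lower and 1 higher, against 49.6% lower and 23.9% higher over all genes. Stfa2l1 (46.3 and 33.3 RPKM in BBC1115 cells, 68.2 and 63.1 RPKM in RVX-208 cells) was lower by a log2 fold change of -0.73 (interval -1.08 to -0.38, limma adjusted p = 0.0016). Gm5483 (-0.50, adjusted p = 0.00345) and Stfa2 (-0.29, 0.0476) were lower too. Cst3 was the higher one, with 195 and 168 RPKM in BBC1115 cells, against 149 and 149 RPKM in RVX-208 cells (0.28, interval 0.06 to 0.50, adjusted p = 0.0241). The call on Cst3 was lost without either RVX-208 replicate (adjusted p = 0.102 and 0.105) and without BBC1115 replicate 1 (0.215), and that on Stfa2 without RVX-208 replicate 1 (-0.17, 0.337) and without BBC1115 replicate 2 (-0.19, 0.236). Stfa2 passed in 14 of the 21 alternatives, and it was also lost with upper-quartile scaling (-0.07, 0.665), quantile normalization (-0.08, 0.613), a pseudocount of 0.1 (0.0523), no filter (0.103) and no variance trend (0.0628).

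Gene length moved with a difference between the libraries of a group. In DMSO cells the median log2 difference of replicate 1 minus replicate 2 was 0.29 for the 93 tested genes with up to 700 exon bases and -0.18 for the 2314 with 7001 or more. In BBC1115 cells it was 0.23 and -0.10, while in RVX-208 cells it was -0.05 and 0.01. The stefins are short, with 387 to 1862 exon bases, and other than BC117090 they differed between the DMSO libraries by 0.15 to 0.54. The 1862 bases of Gm5483 cover 2 annotated transcripts, and the one used for its shared windows has 414 bases. The length classes and the removal of the length trend used the exon bases, so the class of Gm5483 is uncertain. Cstb differed by 0.27 and Cst3 by 0.18.

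The share of genes lower with OTX-015 also differed between length classes. The members themselves are not among the genes counted. Among the 93 genes with up to 700 exon bases, the class of Stfa2, Stfa3, Stfa2l1, BC117090 and Cstb, the median log2 fold change was 0.03 and 29.0% were lower. Among the 131 with 701 to 1000, the class of Stfa1 and BC100530, the median was -0.35 and 51.1% were lower. Among the 1286 with 1501 to 2500, the class of Gm5483 by its exon bases, these were -0.28 and 49.1%. With the length trend taken out of every library, an alternative added after the data had been seen, the stefin median with OTX-015 was -0.57, against 0.00 over all genes. With BBC1115 it was -0.42, against 0.00, and the part of length in the results was not tested further.

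**Figure D4:**
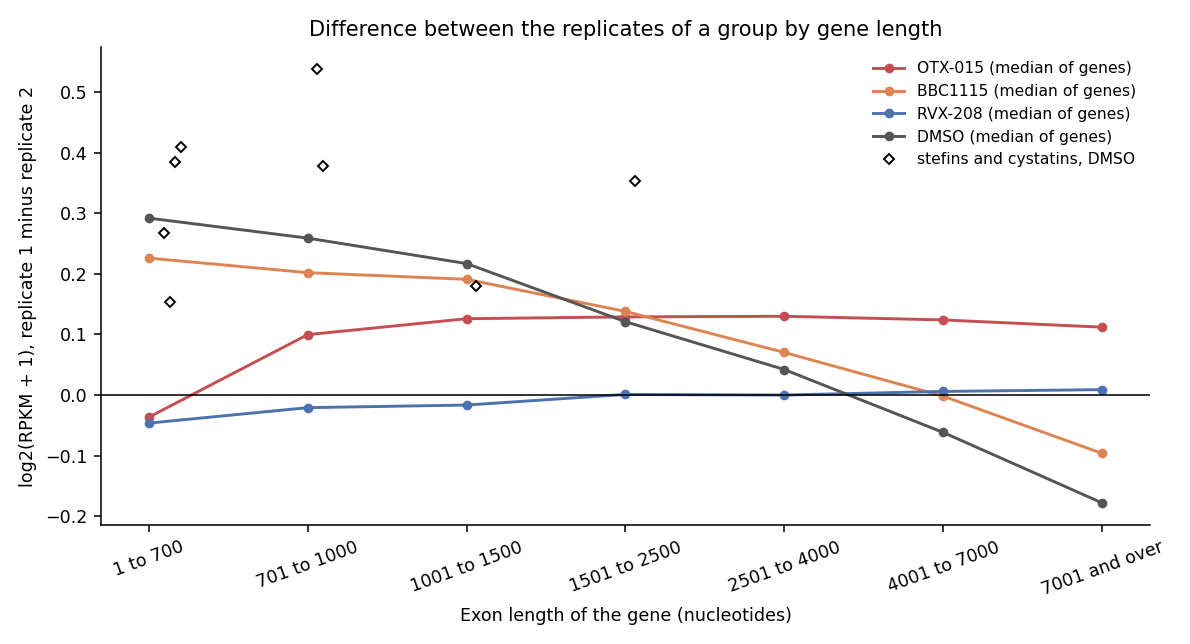
Median log2 difference between replicate 1 and replicate 2 (y axis, log2(RPKM + 1) scale) of genes other than the 9 members in 7 classes of exon length (x axis), for OTX-015, BBC1115, RVX-208 and DMSO libraries. Open diamonds are 8 of the 9 stefin and cystatin genes in DMSO, without BC117090, which lies at -1.60. The DMSO line falls with length, to -0.18 in the longest class, and the diamonds lie between 0.15 and 0.54.

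Other cystatin genes were read from a list of 29 symbols, of which 17 are in the table and 3 passed the filter. All 3 were lower with OTX-015 and all 3 with BBC1115, with medians of -0.99 and -0.84, against 40.0% and 49.3% of all tested genes lower and all-gene medians of -0.13 and -0.25. Gm5416 (Csta3), inside the stefin cluster, shares none of its 50-base windows. It had 15.4 and 12.6 RPKM in OTX-015 cells, 17.5 and 15.2 RPKM in BBC1115 cells, 31.1 and 27.1 RPKM in RVX-208 cells, and 49.4 and 37.1 RPKM in DMSO cells. Its log2 fold changes were -1.55 with OTX-015 (limma adjusted p = 4.39e-06), -1.34 with BBC1115 (6.11e-06) and -0.54 with RVX-208 (0.14), and with OTX-015 and BBC1115 they were larger in size than those of the 7 stefin members, a difference that was not tested.

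2010005H15Rik (Csta2) had 67.7 and 78.4 RPKM in OTX-015 cells, 89.1 and 72.4 RPKM in BBC1115 cells, 104 and 111 RPKM in RVX-208 cells, and 166 and 126 RPKM in DMSO cells. It fell with OTX-015 (log2 fold change -0.98, limma adjusted p = 0.000107) and with BBC1115 (-0.84, 0.000196). Cst7, which encodes cystatin F, an inhibitor of cathepsin C and of related enzymes in granule-bearing immune cells, had 48.9 and 44.0 RPKM in OTX-015 cells, 64.5 and 50.2 RPKM in BBC1115 cells, 79.6 and 77.9 RPKM in RVX-208 cells, and 98.4 and 88.5 RPKM in DMSO cells. Its log2 fold changes were -0.99 with OTX-015 (limma adjusted p = 2.47e-05) and -0.70 with BBC1115 (0.000185). Of the other 14, 11 were listed at 0 in every library and 3, Cst6, Csta1 and Fetub, stayed under 1 RPKM.

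The enzymes that cystatins inhibit did not move as a group. Of the 8 cysteine cathepsins and legumain that passed the filter, 3 were higher and 4 lower with OTX-015 (median log2 fold change -0.05, against -0.13 over all genes). With BBC1115, 4 were higher and 3 lower (median 0.02, against -0.25), and with RVX-208 0 passed. Over all genes 24.2% were higher and 40.0% lower with OTX-015, and 26.4% higher and 49.3% lower with BBC1115. With RVX-208, 2 of the 8 had an unadjusted p under 0.05, 1 higher and 1 lower. The share of all genes at the unadjusted threshold was not counted. Ctsl, which encodes cathepsin L, a lysosomal endopeptidase that stefins inhibit, rose most. It had 48.0 and 46.3 RPKM in OTX-015 cells, 84.3 and 75.7 RPKM in BBC1115 cells, 18.3 and 18.9 RPKM in RVX-208 cells, and 15.4 and 14.8 RPKM in DMSO cells. The group means were 3.12 times the DMSO mean with OTX-015 (log2 fold change 1.58, limma adjusted p = 8.62e-08) and 5.3 times with BBC1115 (2.33, 1.66e-09).

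Ctsb (cathepsin B) averaged 80.7 ± 4.65 RPKM in OTX-015 cells, 84.4 ± 0.932 RPKM in BBC1115 cells and 62.7 ± 2.03 RPKM in DMSO cells (SD, 2 libraries each), and rose with OTX-015 (log2 fold change 0.36, limma adjusted p = 0.00214) and BBC1115 (0.42, 0.000479). Lgmn (legumain, an asparaginyl endopeptidase) rose at a low level, with 4.33 ± 0.363 RPKM in OTX-015 cells, 5.67 ± 0.00907 RPKM in BBC1115 cells and 2.39 ± 0.597 RPKM in DMSO cells (0.66 and 0.99). Ctsc (cathepsin C, which activates granule serine proteases) rose with BBC1115 (0.31, limma adjusted p = 0.011) and had a log2 fold change of 0.21 with OTX-015 (0.0639).

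Ctsz (cathepsin X), the most abundant of these enzymes in DMSO cells, averaged 161.8 ± 14.0 RPKM in OTX-015 cells, 106.3 ± 6.22 RPKM in BBC1115 cells and 227.9 ± 3.55 RPKM in DMSO cells. It fell with OTX-015 (log2 fold change -0.49, limma adjusted p = 0.000605) and with BBC1115 (-1.09, 7.06e-07). Ctsh (cathepsin H) fell with both compounds (-0.50 and -0.41), as did Ctso (cathepsin O, -0.39 and -0.56). Ctss (cathepsin S) fell with OTX-015 (-0.31, limma adjusted p = 0.0349) and had a log2 fold change of -0.26 with BBC1115 (0.0591).

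Lysosomal proteases of other classes gave 1 higher and 2 lower of 7 with OTX-015, and 1 higher and 3 lower with BBC1115. These shares are under those of all genes, 24.2% higher and 40.0% lower with OTX-015, and 26.4% higher and 49.3% lower with BBC1115. Scpep1, a serine carboxypeptidase, was the higher one (log2 fold change 0.27 and 0.54). Ctsg, the granule serine protease cathepsin G, fell most, to 652 ± 27.2 RPKM in OTX-015 cells and 507 ± 34.2 RPKM in BBC1115 cells, against 1786 ± 187 RPKM in DMSO cells (-1.45 and -1.81). Ctse, which encodes the aspartic protease cathepsin E, was lower with both (-0.48 and -0.61), and Tpp1, a tripeptidyl peptidase, with BBC1115 (-0.33).

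Inhibitors of other proteases were represented by 11 tested genes of 26 listed. With OTX-015, 2 were higher and 6 lower, and with BBC1115, 0 were higher and 5 lower. Of all tested genes 24.2% were higher and 40.0% lower with OTX-015, and 26.4% higher and 49.3% lower with BBC1115. The count of lower genes with BBC1115 is thus near that of all genes. Serpinb1a, an inhibitor of neutrophil elastase and cathepsin G, fell to 79.4 ± 8.26 RPKM in OTX-015 cells and 59.4 ± 4.0 RPKM in BBC1115 cells, against 350.4 ± 10.3 RPKM in DMSO cells (log2 fold change -2.13 and -2.54). Serpinb9 (-1.05 with OTX-015) and Serpinb1b (-0.91) fell at low levels, with DMSO means of 1.58 and 1.33 RPKM. Serpinb6a (0.67) and Cast, the calpain inhibitor calpastatin (0.37), rose with OTX-015.

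Around the cluster, 18 of the 24 listed genes within 1 Mb passed the filter. With OTX-015, 4 were higher and 10 lower, and with BBC1115, 4 were higher and 8 lower. Against 24.2% higher and 40.0% lower over all genes with OTX-015, and 26.4% and 49.3% with BBC1115, the counts with BBC1115 and those of higher genes are near the background. By the size of their log2 fold changes with OTX-015 and BBC1115, in that order, the leading genes were Ccdc58, 64.7 kb before the cluster (log2 fold change -1.33 and -1.85), Dirc2 (-1.06 and -1.71) and Dtx3l (-0.99 and -1.69), all lower. On the other side, Eaf2 (0.98 and 1.38), Slc15a2 (0.97 and 1.18) and Cd86 (0.33 and 0.94), which begins 148.5 kb after the cluster, were higher. Genes on both flanks thus included falls and rises.

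**Figure D5:**
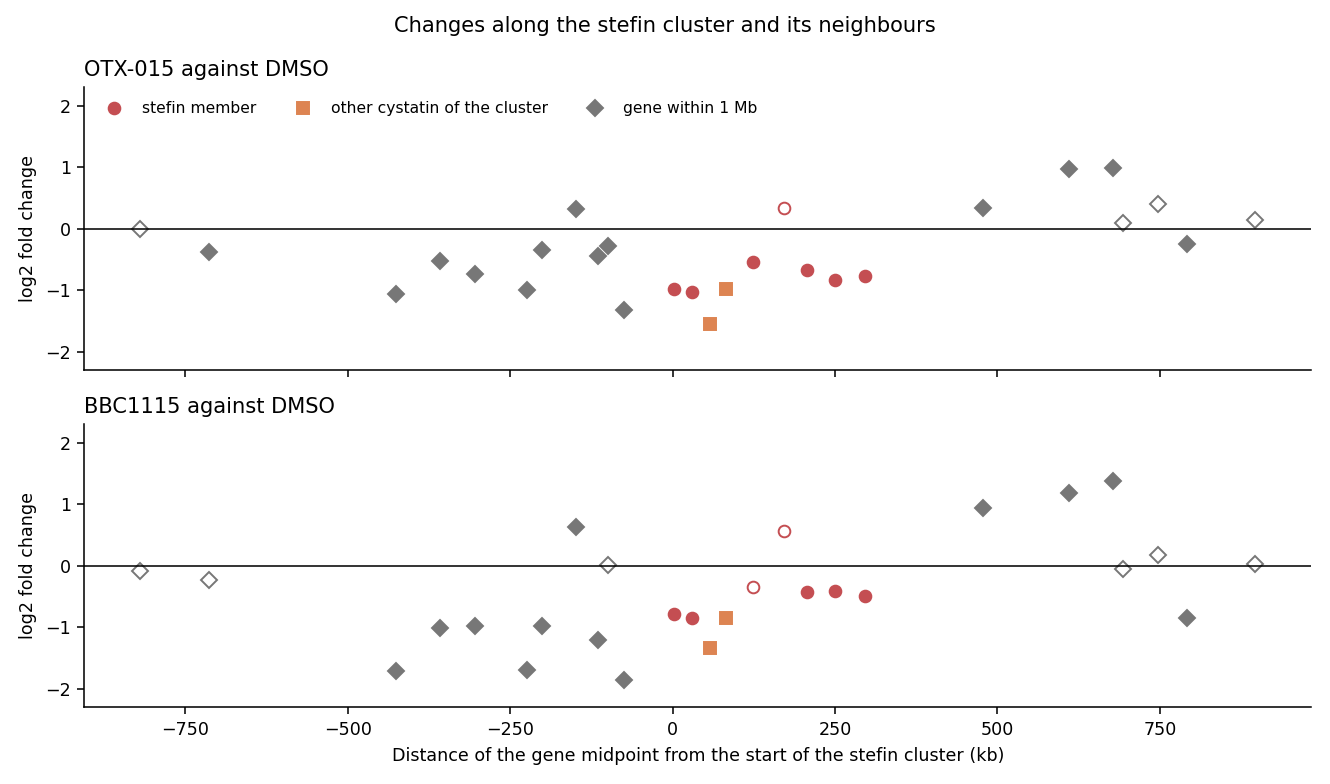
Log2 fold change (y axis) against distance of the gene midpoint from the start of the stefin cluster (x axis, kb) after OTX-015 (upper panel) and BBC1115 (lower panel), each against DMSO; red circles are the 7 stefin members, orange squares Gm5416 and 2010005H15Rik, grey diamonds other tested genes within 1 Mb, and filled symbols passed an adjusted p of 0.05. Within the cluster 8 of the 9 symbols are filled and below 0 with OTX-015, and BC117090, at 0.34, is open.

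Markers of myeloid cells moved with the stefins. Lower genes made up 40.0% of all tested with OTX-015 and 49.3% with BBC1115, and higher genes 24.2% and 26.4%. The all-gene medians were -0.13 and -0.25. Of 18 tested neutrophil and granule genes, 17 were lower with OTX-015 and 16 with BBC1115, with medians of -0.66 and -0.60. Their summed level was 4640 to 5000 RPKM in OTX-015 cells, 4560 to 5300 RPKM in BBC1115 cells, 7140 to 7190 RPKM in RVX-208 cells, and 7550 to 8970 RPKM in DMSO cells. Of 14 tested monocyte and macrophage genes, 12 were lower with OTX-015 and 12 with BBC1115, where 1 was higher, and 1, Ccr2, was lower with RVX-208. Their sums were 1560 to 1720 RPKM in OTX-015 cells, 1810 to 2080 RPKM in BBC1115 cells, 1950 to 2000 RPKM in RVX-208 cells, and 2190 to 2430 RPKM in DMSO cells. All 6 tested mast cell and basophil genes were lower with OTX-015 and with BBC1115, again against 40.0% and 49.3% of all genes. The other 3 of the 9 listed, Tpsb2, Fcer1a and Prss34, were at 0 in every library. The list summed to 41.8 to 45.9 RPKM in OTX-015 cells, 38.7 to 39.5 RPKM in BBC1115 cells, 89.9 to 93.9 RPKM in RVX-208 cells, and 103 to 107 RPKM in DMSO cells. The part of these genes' cells in the stefin values was not tested.

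The genes most like Stfa1 over the 8 libraries were found by the root mean square distance between centred log2(RPKM + 1) values, among 7619 genes that averaged 5 RPKM or more. They were Mrpl30 (distance 0.04), Erh (0.05), S100a9 (0.06), Psma3 (0.06) and Ly6e (0.06). S100a9, a subunit of the calcium-binding protein calprotectin of neutrophils, averaged 917 RPKM in OTX-015 cells, 999.7 RPKM in BBC1115 cells, 1250 RPKM in RVX-208 cells and 1381 RPKM in DMSO cells. Among the members, BC100530 (rank 40) and Stfa3 (rank 47) came nearest to Stfa1, Stfa2l1 came at rank 2281, and BC117090 at rank 6709.

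Cstb was most like Alg14, Atp5d, 1700037H04Rik, Serf2 and Cyc1, and Cst3 came at rank 12, at a distance of 0.06. Cst3 in turn was most like Eif2b2, 1110008F13Rik, Ube2d3, Rbm3 and Gtf2h5, with Cstb at rank 39. The cystatins outside the cluster were thus nearer to each other than to any stefin, whose distances from Cstb were 0.22 or more and from Cst3 0.26 or more. These distances describe 8 libraries that share treatments and depth, and they carry no test.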

How the data were processed

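The authors deposited 1 table of RPKM for 20484 gene symbols in 8 libraries, all of which were used. Per the submitters' processing notes, STAR and Cufflinks were used with mm10, with no version or role stated. The sources used here do not give the gene annotation, the strand setting or the handling of reads that match several genes. RPKM of transcripts as short as the stefins depend on the length assigned to them, and no further scaling between libraries is stated.

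Genes with at least 1 RPKM in at least 2 libraries (9975) were fitted with limma 3.58.1 in R 4.3.3 on log2(RPKM + 1), with 1 mean per group and a variance trend (degrees of freedom 4 residual, 6.81 prior). Each of 6 contrasts was tested two-sided with Benjamini-Hochberg adjustment over all tested genes, at 0.05. Log2 fold changes are on the log2(RPKM + 1) scale, which understates changes of low genes. The p-values measure the spread between these libraries, pooled over the groups, which may be technical. The script was tested on simulated data.

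Members and gene lists were chosen with earlier results of these data known. Named are the 9 members, every tested cathepsin and cystatin, up to 3 called genes per direction of the other lists, and the 5 nearest genes to Stfa1, Cstb and Cst3. Gene positions came from GENCODE M21, and sequences were compared with Biopython 1.88 in Python 3.11.15. Depth was read from the spacing of RPKM values of long genes with few reads, and is approximate, so no count test was run. The alternatives were other pseudocounts (0.1, 0.5 and 5), no filter or a filter at 5 RPKM, upper-quartile, quantile and TPM scaling, only the groups compared, a replicate block, no variance trend, each library left out and, added after the data had been seen, removal of a length trend (lowess, span 0.3).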

Additional observations from a re-analysis of the deposited data

How the results depend on the processing

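Of the members' calls against DMSO, those on BC100530, Gm5483, Stfa2, Stfa2l1 and Stfa3 with OTX-015 and on Gm5483 and Stfa2l1 with BBC1115 held under all 21 alternatives. With OTX-015, Cst3 was called higher with quantile normalization (0.23), TPM (0.19), TPM without the 9 members (0.18) and the length trend removed (0.34), and Cstb with quantile normalization (0.19) and the length trend removed (0.13). BC117090 was called lower without DMSO replicate 1 (-0.46) and higher without DMSO replicate 2 (1.14), and the RVX-208 sum of stefin RPKM was 1.02 of the DMSO sum without DMSO replicate 1 (0.767 to 1.02 over the libraries left out). The causes were not tested.

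Higher members numbered 0 with OTX-015, but 2 with quantile normalization or the length trend removed and 1 with TPM, TPM without the members or only the groups compared. With BBC1115 they numbered 0, but 2 with quantile normalization and 1 with the other scalings or the length trend removed, and lower members 5, but 2 with upper-quartile scaling. For BBC1115 against OTX-015, 1 higher became 0 with no filter or TPM. With the length trend removed there were 2, Gm5483 and Cst3 (0.24 and 0.15), while Stfa2, the member called otherwise, did not pass (0.19, adjusted p = 0.252). For RVX-208 against OTX-015, 0 lower became 2 with quantile normalization or the length trend removed and 1 with the other scalings. For BBC1115 against RVX-208, 1 higher became 2 with upper-quartile scaling, quantile normalization or the length trend removed, and 3 lower became 1 with upper-quartile scaling and 5 with quantile normalization, TPM or the length trend removed.

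Leaving out each library in turn, where a lone library is assumed to vary like the other groups, gave 5 to 6 lower and 0 to 1 higher members with OTX-015, 3 to 6 and 0 to 1 with BBC1115, and 0 to 2 and 0 to 1 with RVX-208. Higher members were 0 to 2 for BBC1115 against OTX-015 and against RVX-208 (2 to 4 lower), and 3 to 6 for RVX-208 against OTX-015.

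The replicate numbers were not taken as pairs: deviations of same-numbered libraries correlated at 0.524 for DMSO with BBC1115 and between -0.0845 and 0.0551 for the other 5 pairs of groups. With a replicate block the lower members were 6 with OTX-015 and 6 with BBC1115, and the higher members rose to 2 for BBC1115 against OTX-015 and against RVX-208. With the block 20 genes were lower for RVX-208 against DMSO, and 8 without it.

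Over all genes, counts for RVX-208 against DMSO were small and moved most, with 3 to 662 higher and 3 to 384 lower, against 9 and 8. Higher genes rose to 3642 with quantile normalization for OTX-015 (2418 before) and to 3977 with the length trend removed for BBC1115 (2629). For BBC1115 against OTX-015 they ran from 798 to 2906 (1413) and lower genes down to 1868 without OTX-015 replicate 1 (2964). Against RVX-208, BBC1115 had up to 3859 higher (2382), and RVX-208 against OTX-015 up to 3173 lower (1752). The median of all genes lay between -0.19 and 0.04 with OTX-015 and between -0.28 and 0.01 with BBC1115 over the settings, and the stefin median lay 0.43 to 0.83 and 0.04 to 0.55 below it. Doses, times and 2 libraries a group limit all comparisons.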
